A study of Homo sapiens with 8 samples.

Results

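The interferon response and the presentation of peptides on MHC molecules were followed through 43 genes in hiPS-CMs, cardiomyocytes derived from human induced pluripotent stem cells, after hypoxia and reoxygenation (H/R). The genes were chosen by name, 33 interferon-stimulated genes and 10 genes of antigen presentation, and each was found as a single entry among the 60658 genes listed. The rule used names alone and no measured value, though the names were chosen with earlier results of these data known. Of the 43 genes, 39 reached 1 FPKM (fragments mapped to a gene, scaled to transcript length and to sequencing depth) in at least 4 of 8 libraries and were tested. OASL, RSAD2, XAF1 and HERC5 did not reach this level and were described only.

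A cell that senses foreign or misplaced nucleic acid makes interferons, which bind receptors on the same and on neighbouring cells. Receptor-bound JAK1 and TYK2 then phosphorylate STAT2, which with IRF9 is part of a complex that binds the interferon-stimulated response element (ISRE) in the promoters of its target genes. The products of these genes block viral entry, degrade or trap viral RNA, raise the level of the sensors themselves and load peptides on MHC class I molecules. The same genes also have a low tonic level in unstimulated cells, and in cardiomyocytes they are known from viral myocarditis and from the response to infarction.

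RNA sequencing had been done on 4 libraries for each of the groups H/R and H/R+BA. Cells of both groups, all from a single human iPS cell line, were kept for 12 h at 1% O2 in DMEM with 0.3 g/L glucose and no serum, and were then reoxygenated for 12 h. The H/R group was reoxygenated in DMEM with 10% fetal bovine serum, and the H/R+BA group in medium conditioned by BA sheets. These are rat brown adipocytes grown on a polymer fibre mesh. They were first induced with insulin, T3, IBMX, dexamethasone and rosiglitazone, and this medium was then replaced by one with insulin and T3. The groups therefore differed in the medium of the reoxygenation phase, for which 10% serum is listed in both groups. There was no normoxic group among these libraries, no group treated with interferon and no medium from sheets without cells, so the levels could be compared only between H/R and H/R+BA. The labels did not say whether the 4 replicates of a group were separate differentiations, and the p-values measure the spread between these libraries.

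The libraries held 39854257 to 53308952 reads, of which 95.38% to 96.34% were mapped. The label of cardiomyocyte was checked against 10 marker genes, whose summed level was 10950 to 16954 FPKM after H/R and 12431 to 15593 FPKM after H/R+BA (p = 0.914, two-sided exact permutation test). The sum was for the most part MYL7, at a mean of 8830 FPKM. Of the 10 genes only TNNI3 had an adjusted p below 0.05, higher after H/R+BA (log2 fold change 0.46, adjusted p = 0.0229 by limma). Over all genes tested 24.7% had an adjusted p below 0.05. Of 10 leukocyte genes, PTPRC (CD45) was listed at 0 in 7 of 8 libraries and at 0.0507 FPKM in the other one, MS4A1 was listed at 0 in all, and CD14, AIF1, CD3E and NKG7 were at no more than 0.237 FPKM. The other leukocyte genes were not at 0, with CD68 at 3.6 to 14.2 FPKM, LYZ at 1.01 to 3.78, CSF1R at 0.573 to 1.7 and TYROBP at 0.0829 to 1.62 FPKM. The summed level of some other marker lists differed between the groups. The summed level of 10 endothelial genes was 35.8 to 43.8 FPKM after H/R and 55.5 to 64.7 FPKM after H/R+BA, that of the leukocyte genes, for the most part CD68, was 5.45 to 13.3 FPKM and 14.2 to 20.9 FPKM, and that of 10 pluripotency genes was 6.96 to 7.85 FPKM and 16 to 19.4 FPKM. For each of these 3 lists the groups did not overlap (p = 0.0286 in a two-sided exact permutation test, which can go no lower with 4 libraries in each group). The same exact test gave p = 0.0857 for 10 fibroblast genes and p = 0.371 for 10 smooth muscle genes. In bulk libraries of this kind, more cells of a type and more RNA per cell cannot be told apart.

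The level of the 43 genes spanned more than 3 orders of magnitude. B2M, the light chain shared by all MHC class I molecules, was highest with a mean of 907 FPKM over the 8 libraries, followed by IFITM3 at 439, ISG15 at 314, IFI6 at 289.9 and HLA-B at 110.2 FPKM. A further 19 genes had a mean between 10 and 100 FPKM, 15 lay between 1 and 10 FPKM, and the 4 untested genes lay below 1 FPKM.

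**Figure D1:**
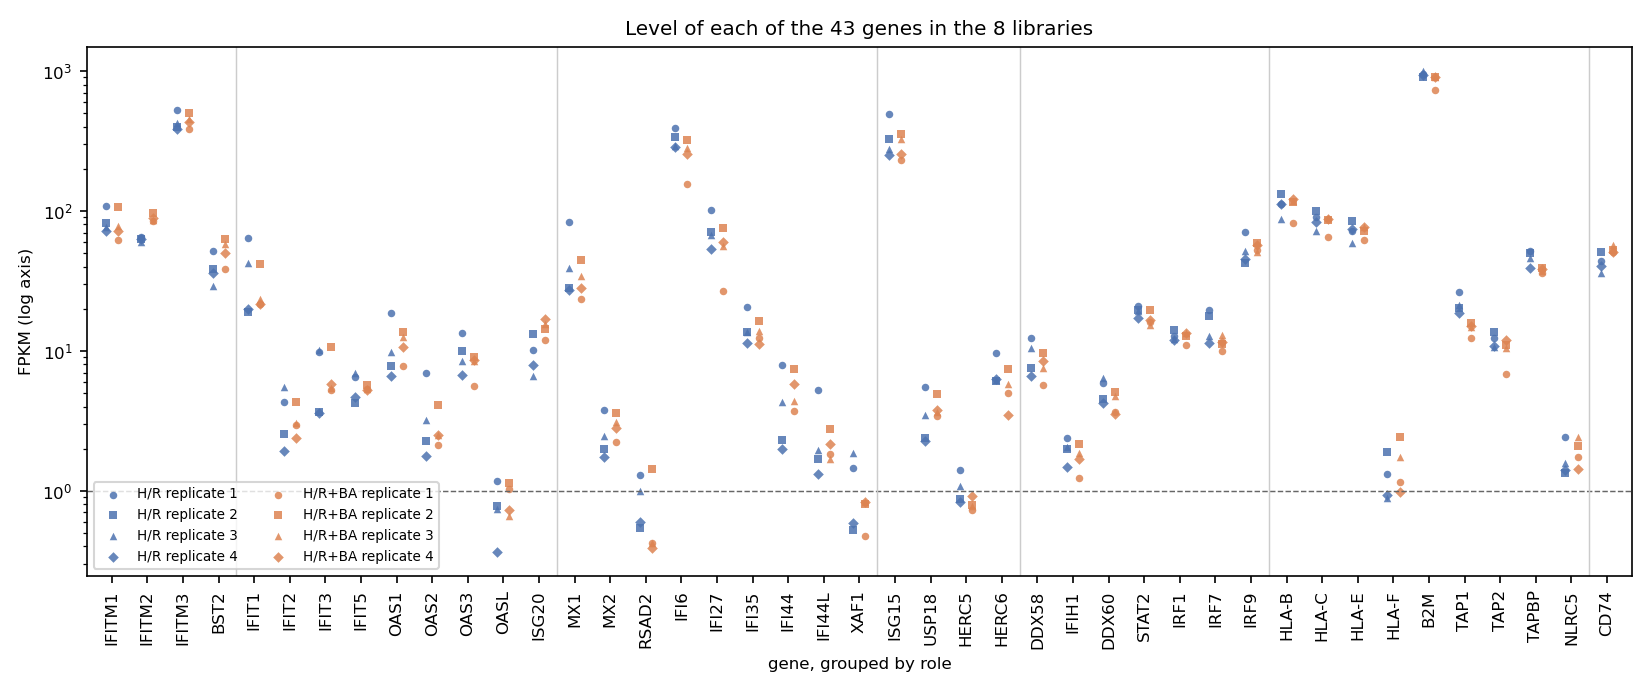
FPKM on a log axis for each of the 43 genes, with the 4 H/R libraries in blue and the 4 H/R+BA libraries in orange, symbols standing for replicate numbers and grey lines separating roles. The dashed line marks 1 FPKM, and the groups overlap for all genes tested except IFITM2 and TAP1.

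In the comparison of H/R+BA with H/R, 5 of the 39 genes tested passed the threshold of an adjusted p below 0.05 (limma on log2(FPKM + 1), Benjamini-Hochberg adjustment over all genes tested). IFITM2, ISG20 and CD74 were higher in the H/R+BA group, and TAP1 and TAPBP were lower. The 5 genes were 12.8% of those tested, whereas 24.7% of all 14334 genes tested were called, 13.7% higher and 11.1% lower. Of the 39 genes, 13 had a positive and 26 a negative log2 fold change, with a median of -0.09 beside 0.01 over all genes tested. The libraries of the groups lay fully apart for 2 of the 39 genes (5.13%), beside 28.6% of all genes tested. The calls of IFITM2 and TAP1 held in every alternative processing and without any of the 8 libraries, while those of ISG20, CD74 and TAPBP were lost without several of the libraries, as given with each gene. These 3 were also lost without a filter on low values (adjusted p = 0.106, 0.103 and 0.0733 by limma) and in an unmoderated linear model (0.106, 0.0987 and 0.0713), and ISG20 and CD74 with FPKM rescaled to equal totals (0.0504 and 0.0689). Without a filter and without moderation the calls over all genes were fewer as well. The count of genes called lay between 1 and 3 higher and between 1 and 3 lower when each library was left out in turn.

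**Figure D2:**
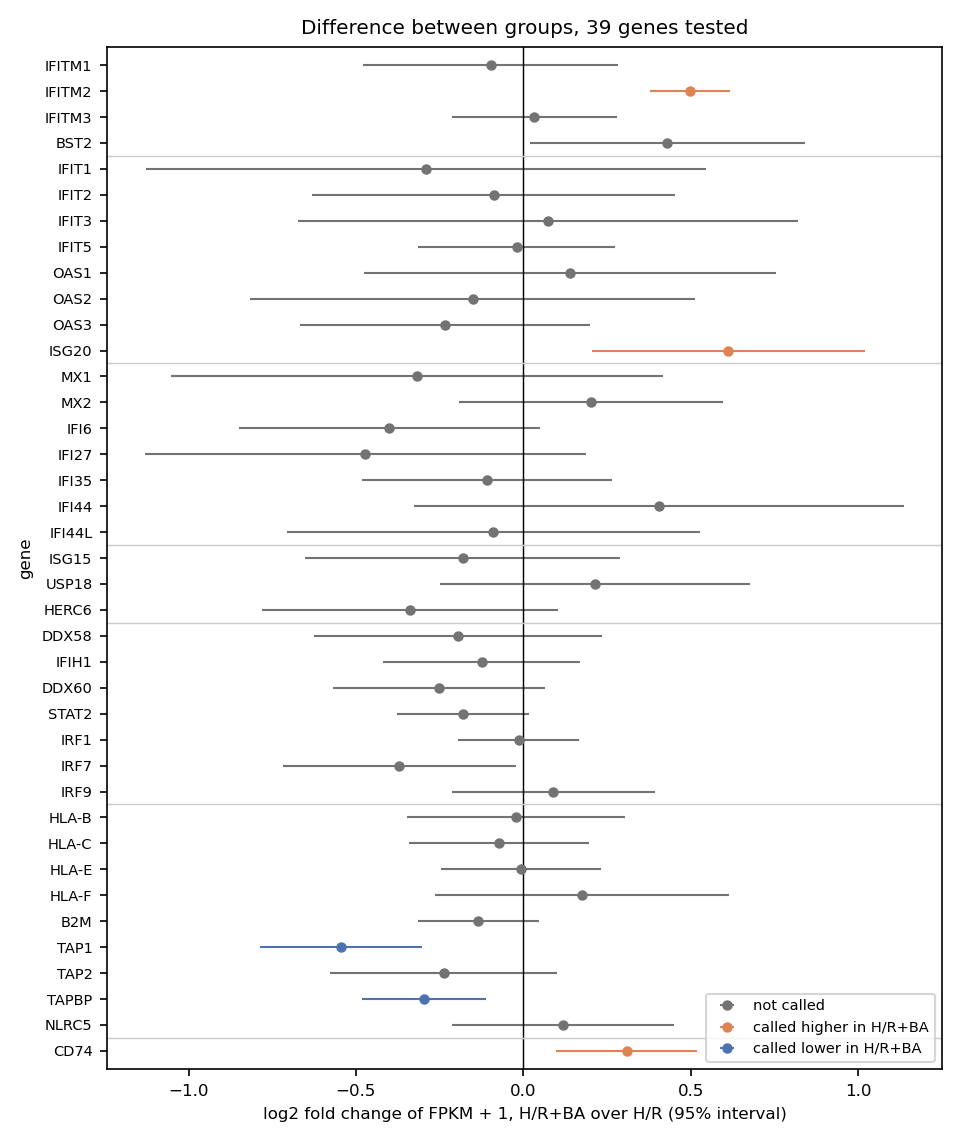
Log2 fold change of FPKM + 1, H/R+BA over H/R, for the 39 genes tested, with points for the estimate and bars for its 95% interval from limma. Orange and blue mark the 3 genes called higher and the 2 called lower, and most grey intervals cross 0 with a width set by the spread between libraries.

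The promoters of the genes are shown for the 4 called members that had a RefSeq entry and for IFIT1, a classical ISRE target. All 5 hold the ISRE core in at least 1 window, and only windows with the core are shown. TAP1 had 2 windows, of which the one without the core is left out. The core was searched as GAAANNGAA on both strands in windows from 250 bases before to 50 bases after the annotated start (RefSeq, GRCh38.p14), and capitals mark each match, read as TTCNNTTTC where it lies on the opposite strand. The sequences run 5′ to 3′ on the strand of the gene.
IFIT1, chr10:89392373-89392672, plus strand: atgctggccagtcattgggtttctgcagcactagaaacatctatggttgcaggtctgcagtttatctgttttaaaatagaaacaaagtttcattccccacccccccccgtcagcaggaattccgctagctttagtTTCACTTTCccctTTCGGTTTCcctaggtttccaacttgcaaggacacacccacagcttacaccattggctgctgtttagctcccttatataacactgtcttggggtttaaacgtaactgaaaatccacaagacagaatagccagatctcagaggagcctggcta
ISG20, chr15:88638766-88639065, plus strand: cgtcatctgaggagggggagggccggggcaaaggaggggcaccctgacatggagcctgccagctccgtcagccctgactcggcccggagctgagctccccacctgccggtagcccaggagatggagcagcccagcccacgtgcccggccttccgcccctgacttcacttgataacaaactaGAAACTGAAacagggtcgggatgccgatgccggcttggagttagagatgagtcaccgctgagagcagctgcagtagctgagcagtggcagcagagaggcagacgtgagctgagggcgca
TAP1, chr6:32853655-32853954, minus strand: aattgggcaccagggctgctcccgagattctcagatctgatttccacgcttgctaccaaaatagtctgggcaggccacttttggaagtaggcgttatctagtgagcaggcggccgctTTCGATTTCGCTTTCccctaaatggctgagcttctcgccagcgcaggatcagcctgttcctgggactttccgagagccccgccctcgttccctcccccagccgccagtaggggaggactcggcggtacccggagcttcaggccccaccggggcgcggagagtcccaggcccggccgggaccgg
TAPBP, chr6:33314029-33314328, minus strand: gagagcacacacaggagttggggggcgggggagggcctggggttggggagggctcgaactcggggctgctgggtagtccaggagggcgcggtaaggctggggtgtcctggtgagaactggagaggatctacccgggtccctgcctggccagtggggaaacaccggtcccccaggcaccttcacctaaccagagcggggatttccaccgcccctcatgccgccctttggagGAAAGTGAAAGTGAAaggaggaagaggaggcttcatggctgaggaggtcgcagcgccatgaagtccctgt
CD74, chr5:150412861-150413160, minus strand: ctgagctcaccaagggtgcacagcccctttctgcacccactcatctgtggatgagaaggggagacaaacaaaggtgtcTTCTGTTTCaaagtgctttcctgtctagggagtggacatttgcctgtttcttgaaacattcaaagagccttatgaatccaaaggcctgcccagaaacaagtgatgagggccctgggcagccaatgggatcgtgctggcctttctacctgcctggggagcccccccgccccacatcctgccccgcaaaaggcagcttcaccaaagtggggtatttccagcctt

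IFIT1 had 2 separate cores that began 115 and 102 bases upstream of the start. TAP1 and TAPBP each held 2 overlapping cores, which began 133 and 127 bases upstream in TAP1 and 20 and 14 bases upstream in TAPBP, whereas ISG20 and CD74 held 1 core, at 69 and 172 bases. A window was found for 34 of the 43 genes, and none for IFITM2, IFIT2, OAS2, OASL, MX2, USP18, IRF7, HLA-E and NLRC5. The core was in at least 1 window of 24 of the 34 genes (70.6%), beside 9.86% of the 27305 genes of the table, or 8.11% of its 35116 windows. By group, these were 18 of 26 interferon-stimulated genes and 6 of 8 genes of antigen presentation. The gamma-activated site TTCNNNGAA, the element of the interferon gamma response, was in 10 genes (29.4%), beside 9.38% of all genes or 7.66% of all windows. Both motifs were in 6 genes and neither in 6, counted over all windows of a gene. In TAP1 the gamma-activated site was in the window that is not shown, not in the one with the ISRE cores. The median log2 fold change was -0.13 over the 22 tested genes with an ISRE core and -0.07 over the 9 tested genes with a window and no core. The matches describe letters in a window and were not tested as binding sites.

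The IFITM proteins sit in cell and endosomal membranes and block the fusion of enveloped viruses, and BST2 (tetherin) holds budding virions at the cell surface. IFITM2 (ENSG00000185201, chromosome 11, 303655 to 309397, GRCh38) was at 64.7, 63.2, 59.96 and 63.1 FPKM in H/R replicates 1 to 4 and at 84.4, 96.4, 86.6 and 88.8 FPKM in H/R+BA replicates 1 to 4, the order used for all values below. Every H/R+BA library was above every H/R library, and the means were 62.7 ± 1.99 FPKM (SD, n = 4) and 89.1 ± 5.24 FPKM (SD, n = 4). The log2 fold change was 0.50 (SE 0.0535, adjusted p = 4.90e-04 by limma), and the adjusted p lay between 3.86e-04 and 0.00666 over all alternatives. Its neighbours IFITM1 and IFITM3 were not called.

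IFITM1 was at 109, 82.2, 76.9 and 71.7 FPKM in the H/R group and at 62, 107, 78.5 and 72 FPKM in the H/R+BA group, with the highest value of each group in H/R replicate 1 and in replicate 2 of H/R+BA. IFITM3 was at 529, 400.2, 425 and 384 FPKM and at 388, 502, 453 and 429 FPKM, with the same libraries on top. The groups overlapped for both genes, and the log2 fold changes were -0.10 (95% interval -0.48 to 0.28) and 0.03 (-0.21 to 0.28). The intervals of IFITM1 and IFITM3 lay below that of IFITM2, 0.38 to 0.62, though the difference between the genes was not tested. The 3 IFITM genes are close paralogs in a cluster, and IFITM2 shares exon bases with another annotated gene on its own strand and with one on the other, so the share of reads given to each is uncertain. IFITM2 also had the lowest SD within groups of the 39 genes, 0.07 on the log2(FPKM + 1) scale.

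BST2 was at 51.9, 38.7, 29 and 35.9 FPKM in the H/R group and at 38.5, 62.7, 58.4 and 50.3 FPKM in the H/R+BA group. H/R replicate 1 lay above H/R+BA replicates 1 and 4, and H/R replicate 2 just above H/R+BA replicate 1. The log2 fold change of 0.43 did not pass the threshold (adjusted p = 0.116 by limma). Without H/R replicate 1 it was called higher (log2 fold change 0.58, adjusted p = 0.0386 by limma).

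The IFIT proteins bind viral RNA ends and stall translation, the OAS enzymes make the 2-5A that activates RNase L, and ISG20 is a 3′ to 5′ exonuclease of single-stranded RNA. ISG20 (ENSG00000172183, chromosome 15, 88635670 to 88656483) was at 10.2, 13.3, 6.61 and 7.94 FPKM in the H/R group and at 12, 14.4, 15.5 and 17 FPKM in the H/R+BA group. H/R replicate 2 lay within the range of the H/R+BA group, and the other 3 H/R libraries lay below it. The log2 fold change of 0.61 (SE 0.182, adjusted p = 0.0349 by limma) was the largest of the 39 genes. The call was lost without H/R replicates 1, 3 or 4 (adjusted p = 0.0521, 0.0671 and 0.0839 by limma) and without H/R+BA replicates 2, 3 or 4 (adjusted p = 0.0747, 0.0826 and 0.0894). It was also lost on the deposited normalized counts (adjusted p = 0.063).

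None of the 7 other tested genes with this role was called, so 1 of 8 was called (12.5%, beside 24.7% of all genes tested). IFIT1, the most abundant of them, was at 64.3, 19.1, 42.2 and 19.96 FPKM in the H/R group and at 21.5, 41.8, 23.5 and 21.5 FPKM in the H/R+BA group. Its level was high in H/R replicates 1 and 3 and in H/R+BA replicate 2 and between 19.1 and 23.5 FPKM in the other 5 libraries, and the SD within groups, 0.67 on the log2 scale, was larger than the difference between them (log2 fold change -0.29, 95% interval -1.13 to 0.54). IFIT3 was at 9.77, 3.68, 10.1 and 3.59 FPKM and at 5.22, 10.6, 5.45 and 5.77 FPKM. IFIT2, at much lower levels, was at 4.34, 2.56, 5.5 and 1.93 FPKM and at 2.93, 4.29, 3.05 and 2.37 FPKM. The same 3 libraries were the highest of their groups for IFIT1, IFIT2 and IFIT3. IFIT5 was at 6.53, 4.21, 6.92 and 4.72 FPKM and at 5.35, 5.69, 5.3 and 5.28 FPKM, a narrower range in which H/R replicates 1 and 3 were again the highest of their group. The 4 genes lie in 1 cluster on chromosome 10.

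Among the OAS genes, OAS1 was at 18.5, 7.76, 9.81 and 6.57 FPKM in the H/R group and at 7.77, 13.7, 12.6 and 10.7 FPKM in the H/R+BA group. OAS2 was at 6.89, 2.27, 3.18 and 1.76 FPKM and at 2.12, 4.12, 2.49 and 2.51 FPKM. H/R replicate 1 was 2.38-fold above the median of the other 3 H/R libraries for OAS1 and 3.03-fold for OAS2. OAS3 was at 13.3, 10.00, 8.47 and 6.68 FPKM and at 5.6, 9.04, 8.46 and 8.55 FPKM, with replicate 1 at the top of H/R and replicate 1 at the bottom of H/R+BA. The intervals of the log2 fold change were -0.48 to 0.75 for OAS1, -0.82 to 0.51 for OAS2 and -0.67 to 0.20 for OAS3. OASL, an OAS relative without the synthetase activity, was at 0.367 to 1.18 FPKM and was not tested.

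The third role held GTPases and other antiviral effectors. MX1 and MX2 are dynamin-like GTPases that trap viral ribonucleoproteins, RSAD2 (viperin) makes a chain-terminating nucleotide, and IFI6 and IFI27 are small membrane proteins of the endoplasmic reticulum and mitochondria. MX1 was at 83.4, 28.2, 39.2 and 27.3 FPKM in the H/R group and at 23.6, 44.7, 34.3 and 28.3 FPKM in the H/R+BA group. H/R replicate 1 was 2.96-fold above the median of the other 3 H/R libraries, and the other 7 libraries overlapped. The log2 fold change was -0.32 (95% interval -1.05 to 0.42). MX2 was at 3.76, 1.98, 2.47 and 1.74 FPKM and at 2.25, 3.62, 3.11 and 2.83 FPKM, again highest in replicate 1 of H/R and replicate 2 of H/R+BA.

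IFI6 was at 393, 336, 293 and 284 FPKM in the H/R group and at 156, 319, 282 and 257 FPKM in the H/R+BA group. IFI27 was at 101, 71.3, 67.5 and 53.1 FPKM and at 26.6, 75.6, 55.9 and 60.2 FPKM. Both genes were lowest of all 8 libraries in H/R+BA replicate 1, and the log2 fold changes of -0.40 (95% interval -0.85 to 0.05) and -0.47 (-1.13 to 0.19) did not pass the threshold (adjusted p = 0.173 and 0.269 by limma). IFI44 was at 7.97, 2.3, 4.33 and 1.99 FPKM and at 3.7, 7.37, 4.41 and 5.82 FPKM, and its paralog IFI44L at 5.29, 1.68, 1.97 and 1.32 FPKM and at 1.82, 2.75, 1.69 and 2.17 FPKM. H/R replicate 1 stood 3.46-fold above the median of the other 3 H/R libraries for IFI44, the largest such ratio among the 33 interferon-stimulated genes, and 3.15-fold for IFI44L. IFI35 ranged from 11.1 to 20.5 FPKM with a log2 fold change of -0.11. RSAD2 was at 1.3, 0.542, 1.00 and 0.601 FPKM and at 0.425, 1.42, 0.42 and 0.391 FPKM, with the highest values in replicate 2 of H/R+BA and replicate 1 of H/R. XAF1, a partner of the caspase inhibitor XIAP, ranged from 0.474 to 1.86 FPKM, with H/R replicates 1 and 3 the highest. By limma 0 of the 7 tested genes of this role were called, beside 24.7% of all genes tested. An unadjusted p below 0.05 was found for 0 of the 7, beside 38.5% of all genes tested. With 7 genes, no trait of the role is read from these counts.

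ISG15 is a ubiquitin-like modifier that is attached to newly made proteins by ligases of the HERC family, HERC5 in human cells, and removed by USP18, which also blocks the type I receptor. ISG15 was at 494, 327, 278 and 249 FPKM in the H/R group and at 230.4, 356, 325 and 253 FPKM in the H/R+BA group, with the highest values in replicate 1 of H/R and replicate 2 of H/R+BA. The groups overlapped (log2 fold change -0.18, 95% interval -0.65 to 0.29). USP18 was at 5.54, 2.37, 3.47 and 2.26 FPKM and at 3.42, 4.88, 3.67 and 3.79 FPKM, and HERC6 at 9.72, 6.06, 6.21 and 6.26 FPKM and at 4.97, 7.48, 5.8 and 3.5 FPKM. H/R replicate 1 was the highest of its group for both genes, and neither was called (log2 fold change 0.21 and -0.34). HERC5 was at 0.727 to 1.4 FPKM and was not tested.

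Among the sensors and transcription factors, 0 of 7 were called in either direction, beside 24.7% of all genes tested, and 6 had a negative log2 fold change. An unadjusted p below 0.05 by limma was found for 1, beside 38.5% of all genes tested. These counts are too small to be read as a trait of the role. DDX58 (RIG-I), which senses viral RNA with a 5′ triphosphate, was at 12.3, 7.58, 10.5 and 6.56 FPKM in the H/R group and at 5.72, 9.6, 7.6 and 8.43 FPKM in the H/R+BA group (log2 fold change -0.20, 95% interval -0.63 to 0.23). IFIH1 (MDA5), the sensor of long double-stranded RNA, was at 1.24 to 2.38 FPKM, and the helicase DDX60 at 3.55 to 6.42 FPKM. The lowest IFIH1 value was in H/R+BA replicate 1 and the lowest DDX60 value in H/R+BA replicate 4.

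IRF7, the factor that amplifies interferon alpha transcription, was at 19.5, 17.7, 12.8 and 11.4 FPKM in the H/R group and at 10.03, 11.2, 13 and 11.5 FPKM in the H/R+BA group. H/R replicates 1 and 2 were above every H/R+BA library, and the other 2 H/R libraries were within their range (log2 fold change -0.37, adjusted p = 0.11 by limma). Without H/R replicate 4 IRF7 was called lower (log2 fold change -0.49, adjusted p = 0.0363 by limma). STAT2 was at 21.1, 19.4, 19.1 and 17 FPKM and at 16.1, 19.5, 15.2 and 16.5 FPKM, and the DNA-binding partner IRF9 at 70.2, 42.6, 52.1 and 45.1 FPKM and at 52.6, 58.8, 51.3 and 57.1 FPKM. STAT2 was among the most even of the interferon-stimulated genes, whereas IRF9 was 1.56-fold higher in H/R replicate 1 than the median of the other 3 H/R libraries. IRF1, a factor induced mainly by interferon gamma, had a log2 fold change of -0.01 (95% interval -0.20 to 0.17) and ranged from 11 to 14.1 FPKM over the 8 libraries.

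The class I pathway moves peptides through the TAP1 and TAP2 transporter into the endoplasmic reticulum, where tapasin (TAPBP) bridges the transporter to class I heavy chains bound to B2M. TAP1 (ENSG00000168394, chromosome 6, 32845209 to 32853816) was at 26.5, 20.4, 21.2 and 18.7 FPKM in the H/R group and at 12.4, 15.7, 14.8 and 15 FPKM in the H/R+BA group. All H/R+BA libraries were below all H/R libraries, and the means were 21.7 ± 3.35 FPKM (SD, n = 4) and 14.5 ± 1.43 FPKM (SD, n = 4). The log2 fold change was -0.54 (SE 0.108, adjusted p = 0.00636 by limma), and the adjusted p lay between 0.00309 and 0.0322 over all alternatives. TAP1 shares exon bases with PSMB8-AS1 on the other strand, and while the libraries were made with a stranded mRNA kit, no source used here gives the strand setting of the counting.

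TAPBP (ENSG00000231925, chromosome 6, 33299694 to 33314284) was at 51.4, 50.1, 46.2 and 38.9 FPKM in the H/R group and at 36, 38.9, 37.1 and 38.3 FPKM in the H/R+BA group. H/R replicate 4 lay at the top of the H/R+BA range, and the other 3 H/R libraries lay above it (log2 fold change -0.30, SE 0.083, adjusted p = 0.0275 by limma). The call was lost without H/R replicates 1 or 2 (adjusted p = 0.0673 and 0.0574 by limma) and without H/R+BA replicates 1, 2, 3 or 4 (adjusted p = 0.074, 0.0528, 0.0661 and 0.0542). TAP2, the other half-transporter, was at 12.3, 13.6, 10.7 and 10.8 FPKM and at 6.78, 11.1, 10.4 and 11.9 FPKM. H/R+BA replicate 1 was the lowest of the 8 libraries, and the log2 fold change of -0.24 (95% interval -0.58 to 0.10) was not called.

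The heavy chains and B2M were not called. HLA-B was at 111, 133, 87.8 and 112 FPKM in the H/R group and at 82.6, 115, 118 and 122 FPKM in the H/R+BA group (log2 fold change -0.02, 95% interval -0.35 to 0.30). HLA-C was at 89.8, 99.6, 71.4 and 83.9 FPKM and at 65.3, 85.5, 89.1 and 87.7 FPKM, and HLA-E, which presents leader peptides of the other class I chains to NK cells, was at 71.6, 84.4, 58.9 and 74.6 FPKM and at 62.2, 71.9, 76.2 and 76.3 FPKM. For these 3 genes H/R replicate 2 was the highest and H/R replicate 3 the lowest of the H/R group, and H/R+BA replicate 1 was the lowest of the H/R+BA group. B2M was at 946, 911, 999 and 936 FPKM and at 734, 913, 908 and 913 FPKM, with 7 libraries between 908 and 999 FPKM and H/R+BA replicate 1 below them. HLA-F was at 0.89 to 2.43 FPKM, and NLRC5, the transactivator of class I genes, at 1.35 to 2.42 FPKM. The HLA class I genes are similar in sequence and differ between people, so reads can be shared among them or lost against the reference, and the same holds for the class II beta chains.

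CD74 (ENSG00000019582, chromosome 5, 150401637 to 150412969), the invariant chain that guides MHC class II molecules and also serves as the receptor of the cytokine MIF, was at 44.2, 50.8, 36.3 and 40.4 FPKM in the H/R group and at 50.7, 52.7, 57.4 and 51.2 FPKM in the H/R+BA group. H/R replicate 2 reached the lower end of the H/R+BA range by a small margin, and the other 3 H/R libraries were below it. The log2 fold change was 0.31 (SE 0.0938, adjusted p = 0.0386 by limma). The call was lost without H/R replicates 1, 3 or 4 (adjusted p = 0.0609, 0.071 and 0.0876 by limma) and without any 1 of H/R+BA replicates 1 to 4 (adjusted p = 0.0645, 0.0826, 0.101 and 0.0661). CD68 and CSF1R, myeloid markers of which CD68 is also a general lysosomal protein, were higher in the H/R+BA group as well (log2 fold change 0.93 and 0.52). LYZ, the other leukocyte marker tested, was not called (0.10). Also higher were 4 of 7 tested endothelial, 4 of 5 pluripotency, 3 of 9 fibroblast, 3 of 10 smooth muscle and 1 of 10 cardiomyocyte markers. Over all genes tested 13.7% were higher and 11.1% lower, and with lists this short no difference from these shares is read. Of the smooth muscle markers 1 was lower. The part of these cell type markers in the level of CD74, IFITM2 or ISG20 was not tested.

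**Figure D3:**
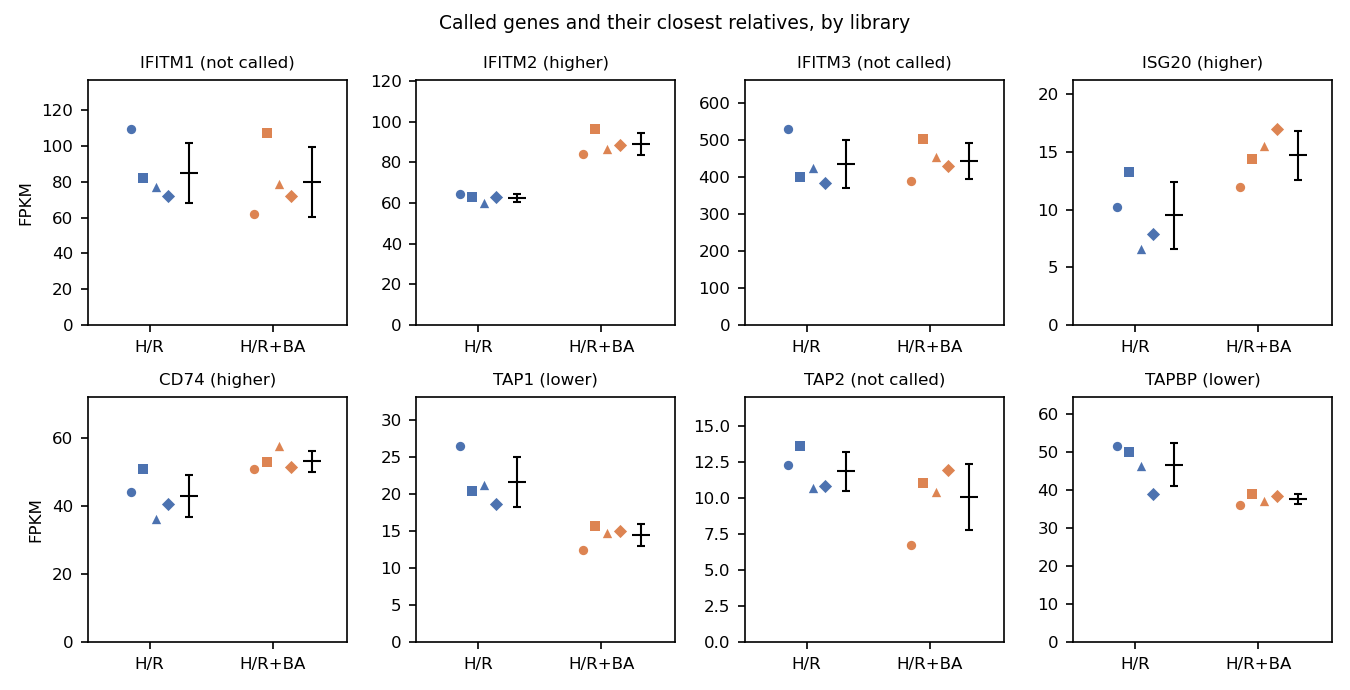
FPKM of the 5 called genes with IFITM1, IFITM3 and TAP2, each on an axis from 0, with points for the libraries (circle, square, triangle and diamond for replicates 1 to 4) and black bars for the mean ± SD of 4 libraries. IFITM2 rises from between 59.96 and 64.7 FPKM in H/R to 84.4 to 96.4 FPKM in H/R+BA, and TAP1 lies at 18.7 to 26.5 and 12.4 to 15.7 FPKM.

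The interferon-stimulated genes had a shared order of libraries within each group. In the H/R group replicate 1 was the highest library for 26 of the 33 genes (78.8%), beside 24.7% of all genes tested, and was above the group mean for 33 of 33. H/R replicate 4 was the lowest for 24 genes (72.7%), beside 22% of all genes tested. In the H/R+BA group replicate 2 was the highest for 28 genes (84.8%, beside 26.7%) and replicate 1 the lowest for 22 (66.7%, beside 24.1%). The median deviation from the group mean on the log2(FPKM + 1) scale was 0.41 in H/R replicate 1, -0.33 in H/R replicate 4, -0.23 in H/R+BA replicate 1 and 0.28 in H/R+BA replicate 2. Over all genes tested the same medians lay between -0.01 and 0.01. These genes are known to be regulated together and are not independent points, and no test was made of the pattern.

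**Figure D4:**
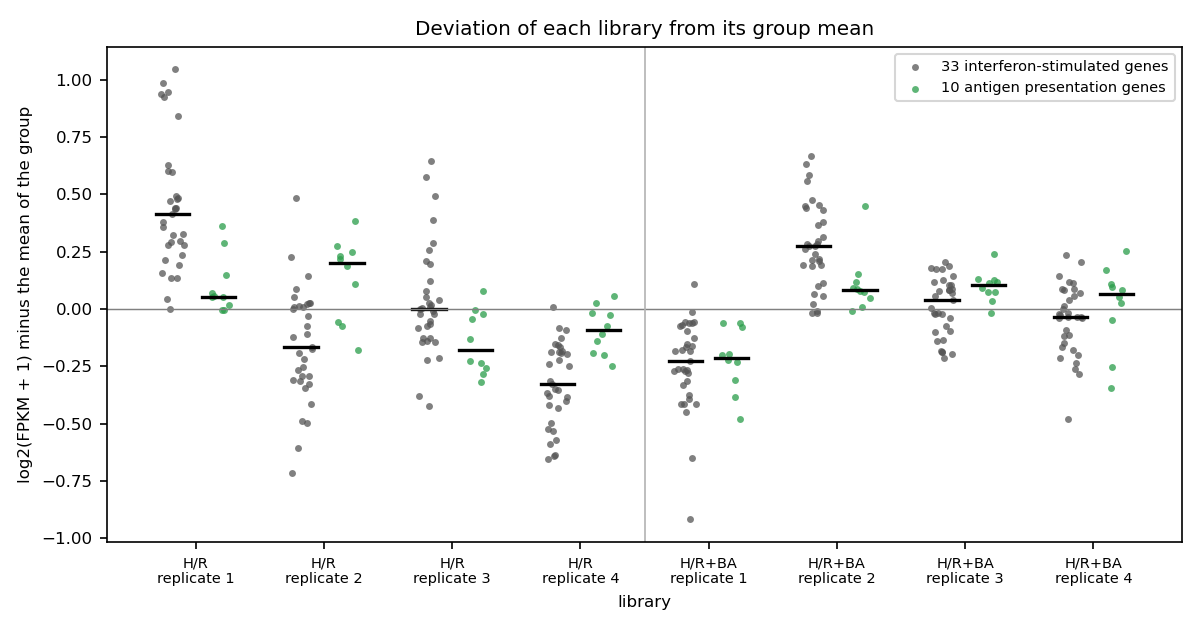
Deviation of each gene from the mean of its group on the log2(FPKM + 1) scale in each library, in grey for the 33 interferon-stimulated genes and in green for the 10 genes of antigen presentation, with black bars for medians. The grey medians are 0.41 in H/R replicate 1 and 0.28 in H/R+BA replicate 2, and -0.33 in H/R replicate 4 and -0.23 in H/R+BA replicate 1.

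The 10 genes of antigen presentation had another order in the H/R group, with replicate 2 the highest for 6 and replicate 3 the lowest for 6. In the H/R+BA group replicate 1 was the lowest for 8 of the 10. Marker sums varied between the same libraries. In H/R replicates 1 to 4 the cardiomyocyte sum was 16954, 10950, 16053 and 12834 FPKM, highest in replicate 1, which was also the highest for most interferon-stimulated genes. In H/R+BA replicates 1 to 4 it was 15593, 15267, 12993 and 12431 FPKM, also highest in replicate 1. That library was the lowest for 22 of the 33 interferon-stimulated genes. The leukocyte sum was 9.73, 13.3, 5.45 and 9.36 FPKM in H/R replicates 1 to 4. It was highest in replicate 2 and lowest in replicate 3, as for 6 antigen presentation genes each. In the H/R+BA group the leukocyte sum was lowest in replicate 1, at 14.2 FPKM. Their part in these orders was not tested. The median log2 fold change of the 29 tested interferon-stimulated genes was -0.10, with 10 positive and 19 negative. Without H/R replicate 1 it was 0.04, with 19 positive and 10 negative, so its sign rested on this library. Without H/R+BA replicate 2 it was -0.20, and without H/R replicate 4 -0.22. For the 10 genes of antigen presentation the median was -0.05, and it lay between -0.12 and 0.04 when each library was left out in turn. It was positive without H/R replicate 2 (0.03) or H/R+BA replicate 1 (0.04).

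The genes were among the more variable of those tested. The SD within groups on the log2(FPKM + 1) scale had a median of 0.29 over the 39 genes and 0.13 over all genes tested, and 21 of the 39 were in the top 10% of all genes. Of these 21, 20 were interferon-stimulated. IFIT1 had an SD of 0.67, IFIT3 of 0.59, MX1 of 0.58 and IFI44 of 0.58, whereas STAT2, IRF1 and IFITM2 had 0.13, 0.11 and 0.07. The range over the 4 H/R libraries reached 4.01-fold for IFI44 and 4.00-fold for IFI44L. With this spread the 95% interval of the log2 fold change had a median half-width of 0.38, beside 0.20 over all genes tested. The interval lay within 1 log2 unit of 0 on both sides for 34 of the 39 genes and within 0.5 for 14. Changes smaller than these intervals were not detectable in most of the 34 uncalled genes, and the lack of a call does not show that their level was the same.

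**Figure D5:**
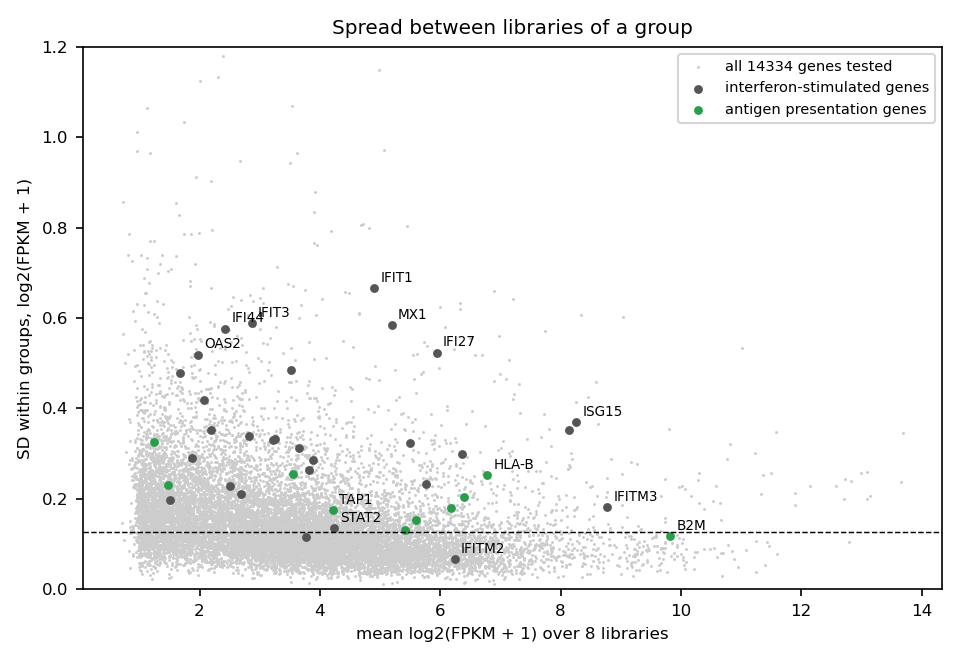
SD within groups against mean level, both on the log2(FPKM + 1) scale, for all genes tested (light grey; 27 lie above the axis limit of 1.2) with the interferon-stimulated genes in dark grey and those of antigen presentation in green. The dashed line is the median of all genes, 0.13, and IFIT1, IFIT3, MX1 and IFI44 lie between 0.58 and 0.67.

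The rest of the pathway was read from lists of genes outside the 43. The interferons themselves were close to undetected: of 21 ligand genes 0 reached the level for testing, and the highest value in any library was 0.373 FPKM, for IFNE, an epithelial type I interferon. Of 9 receptor subunits and Janus kinases, all tested, 1 was higher and 2 were lower in the H/R+BA group (33.3%, beside 24.7% of all genes tested). TYK2 was at 29.9, 35, 32.6 and 32.7 FPKM and at 35.8, 35.8, 39 and 37.9 FPKM (log2 fold change 0.18, adjusted p = 0.0465 by limma). The change of JAK1 was -0.36 log2 units (adjusted p = 0.0176 by limma) and that of JAK2, a kinase of the interferon gamma receptor, -0.50 (adjusted p = 0.0132). JAK1 was at 51.4, 61.8, 47.1 and 54 FPKM in the H/R group and at 37.5, 40.7, 41.4 and 46.5 FPKM in the H/R+BA group, without overlap. The call of TYK2 was lost without any 1 library except H/R replicate 2 (adjusted p = 0.103, 0.072 and 0.0764 without H/R replicates 1, 3 and 4, and 0.0699, 0.0713, 0.121 and 0.107 without H/R+BA replicates 1 to 4) and on the deposited normalized counts (0.955), and that of JAK1 without H/R+BA replicate 1 (0.0519).

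Of 8 inhibitors of interferon signalling, 1 was higher and 2 were lower (37.5%, beside 24.7% of all genes tested). CISH, a SOCS family member and STAT5 target, rose by 0.35 log2 units (adjusted p = 0.0101 by limma). PTPN2, a phosphatase of JAK1, had -0.51 (adjusted p = 0.00277), and SOCS3, the inhibitor of IL6-type receptors, had -0.25 (adjusted p = 0.0322). SOCS3 lost its call without H/R replicates 2 or 3 (adjusted p = 0.0643 and 0.0661 by limma) or H/R+BA replicates 2, 3 or 4 (adjusted p = 0.0817, 0.0813 and 0.0717). PTPN2 was at 10.6, 10.4, 10.3 and 11.7 FPKM in the H/R group and at 8.01, 6.19, 7.68 and 7.28 FPKM in the H/R+BA group, fully apart. Of 14 tested genes of nucleic acid sensing and IRF activation, out of 19 listed, IRF3 was higher (log2 fold change 0.29, adjusted p = 0.00565) and the adaptor TRAF3 was lower (-0.29, adjusted p = 0.0145), which is 14.3% of those tested. With lists this short, no difference from the share of all genes is read from these counts.

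A second list of 43 interferon-stimulated genes outside the set had 36 tested, of which 6 were higher and 2 lower (22.2%). Its median log2 fold change was -0.08. Between 3 and 8 were higher and between 1 and 2 lower when each library was left out in turn, the 3 being found without H/R replicate 2 or 4 or any of H/R+BA replicates 1, 2 and 3. CD274 (PD-L1), the checkpoint ligand induced by interferon gamma, was at 1.36, 0.735, 1.04 and 1.8 FPKM in the H/R group and at 4.16, 4.58, 3.87 and 3.43 FPKM in the H/R+BA group (log2 fold change 1.18, adjusted p = 8.45e-04 by limma). GBP2, a guanylate-binding GTPase, rose by 0.63 log2 units (adjusted p = 0.00587) and UBE2L6, the conjugating enzyme of ISG15, by 0.62 (adjusted p = 0.0104). CCL2, a monocyte chemokine that NF-kB also drives, fell by 0.52 log2 units (adjusted p = 0.00233). UBE2L6 was at 40.7, 31.1, 25.8 and 25.6 FPKM and at 43.2, 53.8, 46.3 and 45.6 FPKM, whereas ISG15 itself was not called.

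A list of 33 further antigen presentation genes had 26 tested, of which 7 were higher and 0 lower (26.9%), and 14 (53.8%) had an unadjusted p below 0.05 in either direction, beside 38.5% of all genes tested. Its median log2 fold change was 0.09. HLA-DPB1, a class II beta chain, was at 17.6, 13.6, 15.3 and 14.7 FPKM in the H/R group and at 21.6, 25.1, 20.7 and 24.4 FPKM in the H/R+BA group (log2 fold change 0.55, adjusted p = 0.00246 by limma). HLA-DRB1 was at 1.33, 1.12, 1.01 and 1.09 FPKM and at 2.2, 2.58, 1.81 and 2.06 FPKM (0.56, adjusted p = 0.00394). The alpha chain HLA-DRA was at no more than 0.0244 FPKM in any library, and the class II transactivator CIITA was at 0.231 to 0.547 FPKM, both named after their values were seen. MICB, a stress ligand of the NK receptor NKG2D, and HLA-G were higher too, by 0.44 and 0.62 log2 units (adjusted p = 0.00578 and 0.00584). Between 6 and 8 genes of this list were higher when each library was left out. The shares of both lists, counted in either direction, are near the 24.7% of all genes tested. By direction, 26.9% of the antigen presentation list were higher and 0 lower, beside 13.7% and 11.1% of all genes tested. Of its 26 log2 fold changes 21 were positive and 5 negative, and the direction was not tested. Of the genes named from these lists, the calls of JAK2, CISH, PTPN2, IRF3, TRAF3, CD274, GBP2, UBE2L6, CCL2, HLA-DPB1, HLA-DRB1, MICB and HLA-G held in every alternative.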

How the data were processed

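RNA from hiPS-CMs was sequenced in 8 libraries made with a stranded mRNA kit, 4 per group, with groups and replicate numbers from the sample labels. Per the labels and the methods, the authors trimmed the reads with Trimmomatic 0.39, aligned them with HISAT2 2.1.0 to GRCh38.p5, and named featureCounts 2.0.6 and Cuffdiff 2.2.1 for quantification and testing; no source used here gives the gene annotation. The deposited table holds FPKM that the authors normalized between libraries, and deposited normalized counts, a signal scaled by the authors with 1 factor for each library, whose values are not whole. The deposited sequencing summary gives the read count and the percent of reads mapped per library. The 4 columns of group means, the 2 columns of the authors' comparison (fold change and p-value) and 9 libraries of other samples in the summary were left out.

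Differences were tested on log2(FPKM + 1), a pseudocount of 1, with limma 3.58.1 in R 4.3.3, with moderated variances that followed a mean trend and two-sided p-values adjusted by Benjamini-Hochberg (threshold 0.05), over the 14334 genes that reached 1 FPKM in 4 libraries or more. A fold change on this scale understates the change of low genes. Sums of marker genes were compared by exact permutation tests, which cannot go below p = 0.0286. No count model was used because the table holds no whole counts, so no counting interval is given. Every member was named, and of each further list up to 4 called genes with the smallest p, or up to 3 genes with the highest level where none was called; any other gene is marked as named after its values were seen. The members, the gene lists and the motifs were chosen with earlier results of these data known, and 1 gene of the receptor and kinase list is not reported here. Gene positions came from GENCODE 44 by gene ID and promoter sequences from RefSeq (GRCh38.p14) by symbol, DDX58 as RIGI; 8 members share exon bases with a gene on the same strand and 16 with a gene on the other strand. Alternatives were another pseudocount (0.1), no filter, at least 10 normalized counts in every library, the normalized counts, FPKM rescaled to the same total or by median ratios, an unmoderated linear model, the replicate number as a block and leaving out each library.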

Additional observations from a re-analysis of the deposited data

Results flagged for a closer look

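In 9 of 86 pairs of a gene and a group, 1 of the 4 libraries lay far from the other 3 (Dixon's test at the 95% level). For independent and normally distributed values such a test flags about 1 in 20. These genes are not independent points, so no excess is read from the count. In H/R+BA replicate 2, IFIT1 was at 41.8 FPKM with the next library at 23.5, IFIT3 at 10.6 with the next at 5.77, and RSAD2 at 1.42 with the next at 0.425 FPKM. In H/R+BA replicate 1, OAS3 was at 5.60 FPKM with the next library at 8.46, XAF1 at 0.474 with the next at 0.798, HLA-C at 65.3 with the next at 85.5, and B2M at 734 with the next at 908 FPKM. In H/R replicate 1, IFI44L was at 5.29 FPKM with the next library at 1.97, and HERC6 at 9.72 with the next at 6.26 FPKM. The cause was not tested.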

How the results depend on the processing

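The calls of IFITM2 and TAP1 held in every alternative. The 3 higher and 2 lower members became 1 and 1 without a filter on low values, in the unmoderated linear model and with the replicate number as a block, where ISG20, CD74 and TAPBP were lost, and 1 higher with FPKM rescaled to equal totals. Over all genes the calls fell as well, from 1958 higher and 1588 lower of 14334 genes. They were 1648 and 1169 of 33869 genes without a filter, and 1550 and 1329 of 14334 in the unmoderated linear model. When each library was left out, the members called higher lay between 1 and 3 and those called lower between 1 and 3, BST2 and IRF7 being the 2 of 34 uncalled members that gained a call. Over all genes tested the deposited normalized counts gave 2595 lower in place of 1588, and 2350 higher in place of 1958. Of the receptors and kinases, 0 in place of 1 were higher without a filter, on the normalized counts, with either rescaling, without moderation and with the block, and 1 in place of 2 was lower without a filter, with equal totals and without moderation. Of the inhibitors, 1 in place of 2 was lower without a filter, with equal totals and with the block. Of the other interferon-stimulated genes, 3 in place of 6 were higher without a filter and without moderation, and 1 in place of 2 was lower without a filter, with the filter on normalized counts, with equal totals and with the block. Of the other antigen presentation genes, 1 in place of 0 was lower on the normalized counts and with median ratios. Without each library in turn the counts of genes called higher and lower were 0 to 1 and 1 to 2 for receptors and kinases, 1 and 1 to 2 for inhibitors, 1 to 2 and 1 for nucleic acid sensing, 3 to 8 and 1 to 2 for the other interferon-stimulated genes, and 6 to 8 and 0 to 1 for the other antigen presentation genes.

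The correlations of deviations from the group means between same-numbered libraries were 0.24, -0.24, -0.25 and -0.01 for replicates 1 to 4. With 4 libraries in each group these values cannot decide whether the numbers pair the samples. The block gave 1460 higher and 1071 lower genes. No called member and no called gene of the further lists changed direction, and the other genes of the fit were not checked for this. Uncalled members whose sign changed, up to 9 without H/R replicate 1, were not counted as a change of direction. In FPKM without whole counts, counting error could not be separated from the spread between libraries.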
